A study of Anas platyrhynchos with 3 samples.

Results

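The bill skin of late Pekin duck embryos (Anas platyrhynchos) gave RNA sequencing values for 81 genes of cytokines, chemokines, their receptors and toll-like receptors. These members are the rows of a table of 14938 genes whose symbol begins with IL and a digit, CCL, CXCL, TNFSF, TNFRSF or TLR and a number, or is CCR or CXCR and a number. Skin was taken on embryonic day 24 to 26 from ducklings that had pierced the inner membrane of the shell, which is 24 to 48 hours ahead of hatching, out of eggs kept at 37 °C. All 3 libraries are biological replicates of a single group, labelled with neither a treatment nor a genotype. With no other group to set against it, each gene was compared with the remaining genes of its library. Whether a replicate is 1 embryo or a pool is not given in the sources used here.

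Cytokines are secreted or surface-bound signals that cells of the immune system and of epithelia use to call, activate or restrain one another. Interleukins act through paired receptor subunits that mostly signal through JAK kinases and STAT factors, chemokines attract cells along a gradient through G protein-coupled receptors, and the TNF superfamily acts through receptors that recruit TRAF adaptors. Toll-like receptors recognise microbial products and signal through MYD88 or TICAM1 to the factor NF-kB. In mammalian skin, keratinocytes carry receptors for several interleukins and make chemokines, while many interleukins come from leukocytes.

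Replicates 1, 2 and 3 had 32247700, 30630039 and 25268141 reads counted on genes, of which the members took 0.173, 0.178 and 0.172% in that order. Levels are given in the authors' FPKM, reads scaled to gene length and library size, for replicates 1, 2 and 3 in turn. All 8 measured keratinocyte and all 9 measured fibroblast markers reached 1 FPKM in every library. Of the keratinocyte markers 7 were above the median gene in the test described below, and GRHL2, the lowest at a mean of 15.1 FPKM, was not apart from it. Of the fibroblast markers 7 were above it, PDGFRA was not apart from it and PDGFRB, at a mean of 4.76 FPKM, was below it. Most leukocyte markers were low. The pan-leukocyte gene PTPRC was at 0.315, 0.565 and 0.18 FPKM, CD8A had no read and CD79B had 0, 2 and 0 reads. Of 16 measured leukocyte markers 5 reached 1 FPKM in all 3 libraries, and the summed level of the 16 was 41.9 to 54.7 FPKM. RAC2, at 26.6, 15.5 and 17.4 FPKM, was the highest and was above the median gene, and CD74 and IRF8 had means of 8.52 and 7.60 FPKM. These are levels of whole skin, in which fewer cells of a type and less RNA per cell cannot be told apart.

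Most members were low, and the highest were the chemokine CXCL14 and the receptor genes IL6ST, IL22RA1, TNFRSF21 and TNFRSF19. At least 1 FPKM in all 3 libraries was reached by 35 of the 81 members (43.2%), against 71.0% of all 14938 genes. The median member had a mean of 0.565 FPKM, and the median of all genes was 6.94 FPKM. By role, the minimum was reached by 17 of 28 interleukin receptor genes, 7 of 13 TNF receptor genes, 3 of 7 chemokine genes, 4 of 13 interleukin genes, 2 of 5 TNF ligand genes, 1 of 8 chemokine receptor genes and 0 of 6 toll-like receptor genes. The remaining member over it was IL4I1, which is named after an interleukin but encodes an amino acid oxidase. Of the 46 members under the minimum, 6 had no read in any library, 13 had fewer than 10 reads in every library and 27 had at least 10 reads in some library.

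**Figure D1:**
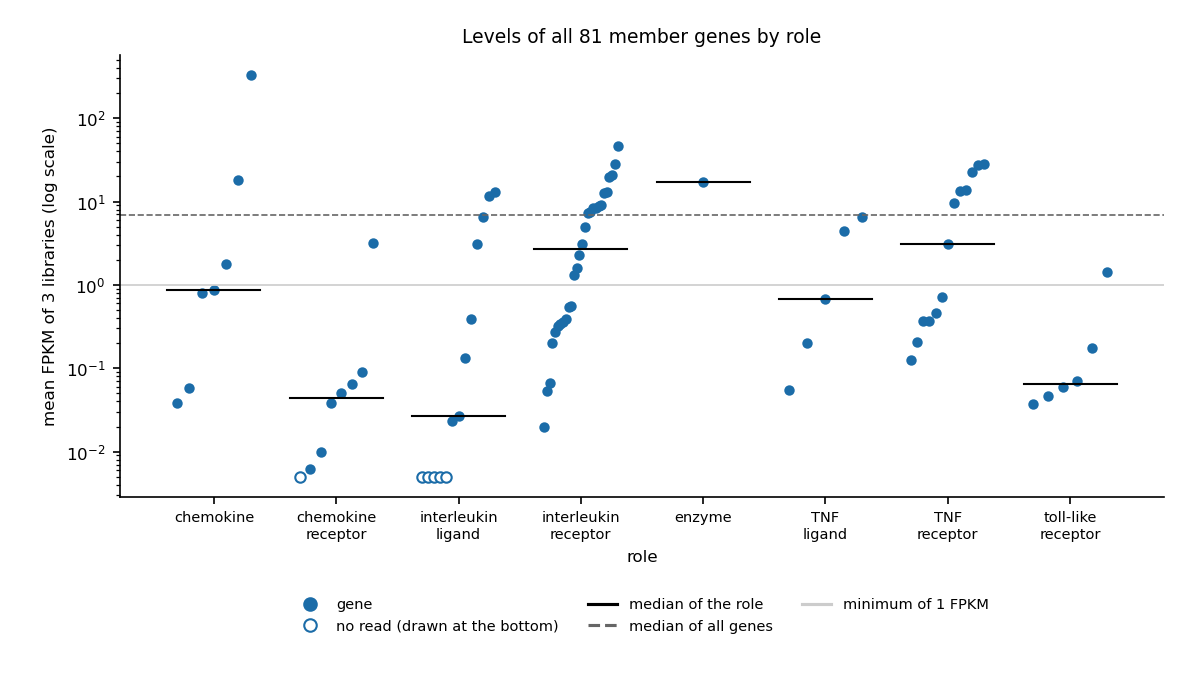
Mean FPKM of 3 libraries on a log axis for each of the 81 member genes, by role. Each point is a gene, open points at the bottom are the 6 genes with no read, black bars are medians of a role, the dashed line is the median of all 14938 genes (6.94 FPKM) and the grey line is the minimum of 1 FPKM. CXCL14 stands alone at 327 FPKM, and chemokine receptors, interleukins and toll-like receptors have their medians well under 1 FPKM.

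The 35 members over the minimum were tested against the library median gene, which lay at 13.3, 13.1 and 13.3 FPKM among the genes kept. In limma's moderated test on log2(FPKM + 0.1), with Benjamini-Hochberg adjustment over all 10605 genes kept, 9 members were above the median gene (25.7% of those tested), against a background of 43.7% of all genes kept. Below it were 19 members (54.3%), against a background of 43.6%, and 7 were not apart from it. The median level of the 35 was 9.02 FPKM and that of all genes kept was 13.3 FPKM. Differences of low genes come out too small on this scale because of the added 0.1. The call of 14 members was the same under all 11 alternatives, as far as these kept the gene. These were CXCL14, IL6ST, IL22RA1 and TNFRSF21 above, and CCL20, CXCR4, IL17D, IL17RA, IL1RL1, IL22RA2, IL23R, IL31RA, TNFRSF4 and TNFSF15 below. The other 21 changed their call under another minimum, which moves the median gene to 7.47 to 7.62 FPKM without a minimum and to 20.0 to 20.3 FPKM at a minimum of 5.

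Neighbours in the order of levels were mostly close. Of 34 pairs of members next to each other by mean, 32 had ranges that overlapped between libraries. The 2 exceptions were CXCL14 over IL6ST and IL6ST over IL22RA1. Below those, the order of any member and the next is not larger than the spread between libraries. Sorting by mean itself makes neighbours close, and how often neighbours overlap among all genes was not computed. The count of overlaps thus shows nothing particular to members.

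Chemokines, the ligands that guide cell movement, ranged over several orders of magnitude. CXCL14, a chemokine that mammalian epidermis makes without stimulation, was at 353, 344 and 284 FPKM, from 12907, 12338 and 8432 reads. It ranked 207th of all genes and was 24.4-fold above the median gene (log2 4.61 ± 0.11 SE, adjusted p = 6.6e-07). All 3 libraries lay within 1.24-fold of each other, and CXCL14 alone made up 46.2, 45.1 and 40.1% of the summed FPKM of the 81 members. CXCL12, which attracts cells that carry CXCR4, was at 27.5, 13.7 and 13.5 FPKM. Replicate 1 was well above the others, the mean without it was 13.6 instead of 18.2 FPKM, and CXCL12 was not apart from the median gene (log2 0.38 ± 0.21 SE, adjusted p = 0.14).

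CCL20, which attracts cells with CCR6, was at 1.57, 2.24 and 1.49 FPKM and 7.26-fold below the median gene (adjusted p = 5.4e-06). CCL28, a chemokine of mucosal epithelia in mammals, was at 1.08, 0.308 and 1.21 FPKM from 114, 32 and 104 reads, so that it missed the minimum in replicate 2. IL8, the symbol used in the table for the neutrophil attractant CXCL8, was at 0.575, 0.81 and 1.04 FPKM from 21, 29 and 31 reads. CCL19 had 4 reads in replicate 1 and none in the others, and CCL26 had 0, 2 and 1 reads. Beside CXCL14, then, the other 6 measured chemokines had means of 18.2 FPKM or less, and 4 of the 7 were under the minimum.

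Chemokine receptors were low throughout. CXCR4, the receptor of CXCL12 and the only receptor of the group over the minimum, was at 1.97, 3.70 and 3.99 FPKM, lowest in replicate 1, where CXCL12 was highest. It was 4.19-fold below the median gene (log2 -2.07 ± 0.20 SE, adjusted p = 0.00012). The lymphocyte receptor CXCR6 had 1, 24 and 4 reads and CCR7, the receptor of CCL19, had 0, 22 and 3 reads. In both, replicate 2 held most of the reads. CCR6, the receptor of CCL20, had 3, 9 and 3 reads, and CXCR5 had 8, 2 and 1. CCR4 had at most 3 reads, CCR10, the receptor of CCL28, had 1 read in all, and CCR9 had none.

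Among interleukins, the 2 highest were IL18 and IL16, both made as precursors and not apart from the median gene. IL18, of the IL1 family, was at 14.4, 11.1 and 13.2 FPKM (log2 -0.04 ± 0.10 SE, adjusted p = 0.72). IL16, a ligand of CD4, was at 11.4, 10.3 and 13.7 FPKM (adjusted p = 0.17). Their levels in the 3 libraries overlapped. IL15, which sustains natural killer and T cells in mammals, was at 4.20, 10.4 and 4.75 FPKM, from 146, 352 and 134 reads. It was below the median gene (log2 -1.15 ± 0.25 SE, adjusted p = 0.0056), and replicate 2 stood well above the others, with a mean of 4.48 instead of 6.44 FPKM without it. IL17D, a member of the IL17 family, was at 2.71, 4.16 and 2.53 FPKM and 4.23-fold below the median gene (adjusted p = 3.6e-05).

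The other 9 interleukin genes among the members were near or at 0. IL1B, IL13, IL17A and IL34, among others, were not analysed. IL10, which restrains inflammation, had 25, 26 and 5 reads (0.507, 0.538 and 0.125 FPKM). IL17B had 4, 7 and 14 reads and a mean of 0.131 FPKM. IL6, a main ligand of the IL6ST receptor chain, had 1, 1 and 0 reads, and IL12B had 2, 4 and 4. IL4, IL17C, IL21, IL22 and IL26 had no read in any library. A count of 0 allows up to 3 reads, which is 0.093, 0.0979 and 0.119 CPM in the 3 libraries and covers counting error only. The table has no row named IL7, but an identifier that the RefSeq gene table of the IASCAAS_PekinDuck_T2T assembly names IL7 had 3 reads in each library.

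Receptor subunits of the interleukins were the largest role group, with a median of 2.69 FPKM over all 28 genes, 4 above (23.5%, background 43.7%) and 11 below (64.7%, background 43.6%) the median gene of 17 tested. IL6ST (gp130), the signalling chain shared by IL6, IL11, LIF and oncostatin M, was at 44.3, 45.8 and 48.6 FPKM, 3.47-fold above the median gene (log2 1.8 ± 0.09 SE, adjusted p = 6e-06). Its SD of log2 values was 0.07, the smallest of the 35, against a median of 0.17 over all genes kept. Its relative IL31RA, which joins OSMR to form the IL31 receptor in mammals, was at 2.71, 3.82 and 2.76 FPKM, 4.22-fold below the median gene (adjusted p = 1.5e-05). IL31RA and IL6ST are next to each other in the RefSeq gene table, yet their ranges were far apart.

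Receptors of the IL10 and IL20 families followed. IL22RA1, the chain that in mammals gives epithelial cells their response to IL22, was at 30.3, 28.1 and 26.8 FPKM, 2.14-fold above the median gene (log2 1.09 ± 0.09 SE, adjusted p = 5.6e-05). IL10RB, the shared second chain of the IL10, IL22 and IL26 receptors, was at 13.9, 22.4 and 23.4 FPKM and 1.46-fold above it (adjusted p = 0.02). That call was lost without replicate 2 (log2 0.46, adjusted p = 0.059) or without replicate 3 (log2 0.44, adjusted p = 0.082). IL20RA, which forms the IL20 receptor with IL20RB, was at 11.5, 16.0 and 11.9 FPKM and not apart from the median gene (adjusted p = 0.84). IL20RB was at 7.10, 6.19 and 11.8 FPKM and 1.64-fold below it (adjusted p = 0.01). Leaving out replicate 1 ended that call (log2 -0.60, adjusted p = 0.07).

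The decoy and the leukocyte chain of these families were lower. IL22RA2, a soluble decoy that binds IL22, was at 1.84, 3.82 and 1.21 FPKM and 6.19-fold below the median gene (adjusted p = 0.0002), highest in replicate 2 and at a mean of 1.53 instead of 2.29 FPKM without it. IL22RA2 and IL20RA are next to each other in the RefSeq gene table, and the lowest IL20RA library was above the highest IL22RA2 library. IL10RA, the private chain of the IL10 receptor on leukocytes, had 18, 26 and 5 reads (0.215, 0.317 and 0.0734 FPKM).

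The chains for IL4 and IL13 were present in all libraries, while IL4 itself had no read. IL4R, which is shared by both ligands, was at 18.6, 23.1 and 21.5 FPKM and 1.58-fold above the median gene (log2 0.66 ± 0.10 SE, adjusted p = 0.0011). IL13RA1, its partner in non-haematopoietic cells of mammals, was at 11.9, 12.9 and 13.3 FPKM and not apart from the median gene (adjusted p = 0.56). IL13RA2, regarded as a decoy for IL13, was at 7.76, 7.41 and 6.69 FPKM and 1.81-fold below it (adjusted p = 0.00021). The 3 genes kept this order in every library. IL2RG, the chain that pairs with IL4R on lymphocytes, had 8, 28 and 11 reads.

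Among measured receptors of the IL17 family, 4 were over the minimum and all 4 lay below the median gene, against a background of 43.6%. Of these, only IL17RA kept its call under all alternatives that kept the gene. IL17RC was not analysed. IL17RE, the receptor of IL17C in mammals, was at 8.54, 6.36 and 12.1 FPKM. Its implied gene length is 453 bases, so these levels come from 122, 89 and 141 reads. The gene model behind so short a length may be partial, in which case the FPKM and its place against the median gene hold for that stretch only. It was below the median gene (log2 -0.60 ± 0.17 SE, adjusted p = 0.018), but not without replicate 1 (log2 -0.56, adjusted p = 0.085) or replicate 2 (log2 -0.36, adjusted p = 0.06). IL17REL, a gene similar to IL17RE, was at 9.22, 7.32 and 8.86 FPKM (log2 -0.65, adjusted p = 0.0012). IL17RD, which also restrains fibroblast growth factor signalling, was at 6.41, 8.18 and 7.63 FPKM (log2 -0.84, adjusted p = 0.00043). IL17RA, the chain shared across the family, was at 4.53, 4.94 and 5.27 FPKM (log2 -1.41, adjusted p = 2e-05). The shared chain was thus the lowest of the 4 in every library.

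In the IL1 and IL18 branch, IL1RAP, the shared second chain of the receptors for IL1 and IL33, was at 9.63, 8.0 and 8.98 FPKM and 1.49-fold below the median gene (adjusted p = 0.0015). IL1RL1, the IL33 receptor, was at 1.59, 1.32 and 1.01 FPKM and 9.64-fold below it (adjusted p = 3.2e-06). IL18R1 was at 0.934, 0.497 and 0.262 FPKM, from 92, 48 and 21 reads, and its partner IL18RAP was at 0.498, 0.212 and 0.307 FPKM. IL1RL1, IL18R1 and IL18RAP were each highest in replicate 1. IL1RAPL1 and IL1RAPL2, relatives of IL1RAP that act at synapses in mammals, had at most 6 and 70 reads in a library.

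The interleukin receptor chains not described above were low. Of these, IL23R, the private chain of the IL23 receptor, was the highest at 1.92, 1.58 and 1.246 FPKM (8.04-fold below the median gene, adjusted p = 3.9e-06). IL12RB2, next to IL23R in the RefSeq gene table and the chain for IL12, was at 0.447, 0.568 and 0.629 FPKM. IL7R, for IL7, was at 0.42, 0.414 and 0.344 FPKM. IL21R had 29, 29 and 54 reads, IL2RB had 6, 8 and 9, and IL5RA had 2, 4 and 1. The RefSeq gene table names a further identifier IL2RA, which had 1, 5 and 2 reads. IL4I1, the oxidase, was at 18.6, 14.9 and 18.3 FPKM and 1.30-fold above the median gene (adjusted p = 0.013), a call that was lost without replicate 1 (log2 0.34, adjusted p = 0.066) or replicate 3 (log2 0.36, adjusted p = 0.06).

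**Figure D2:**
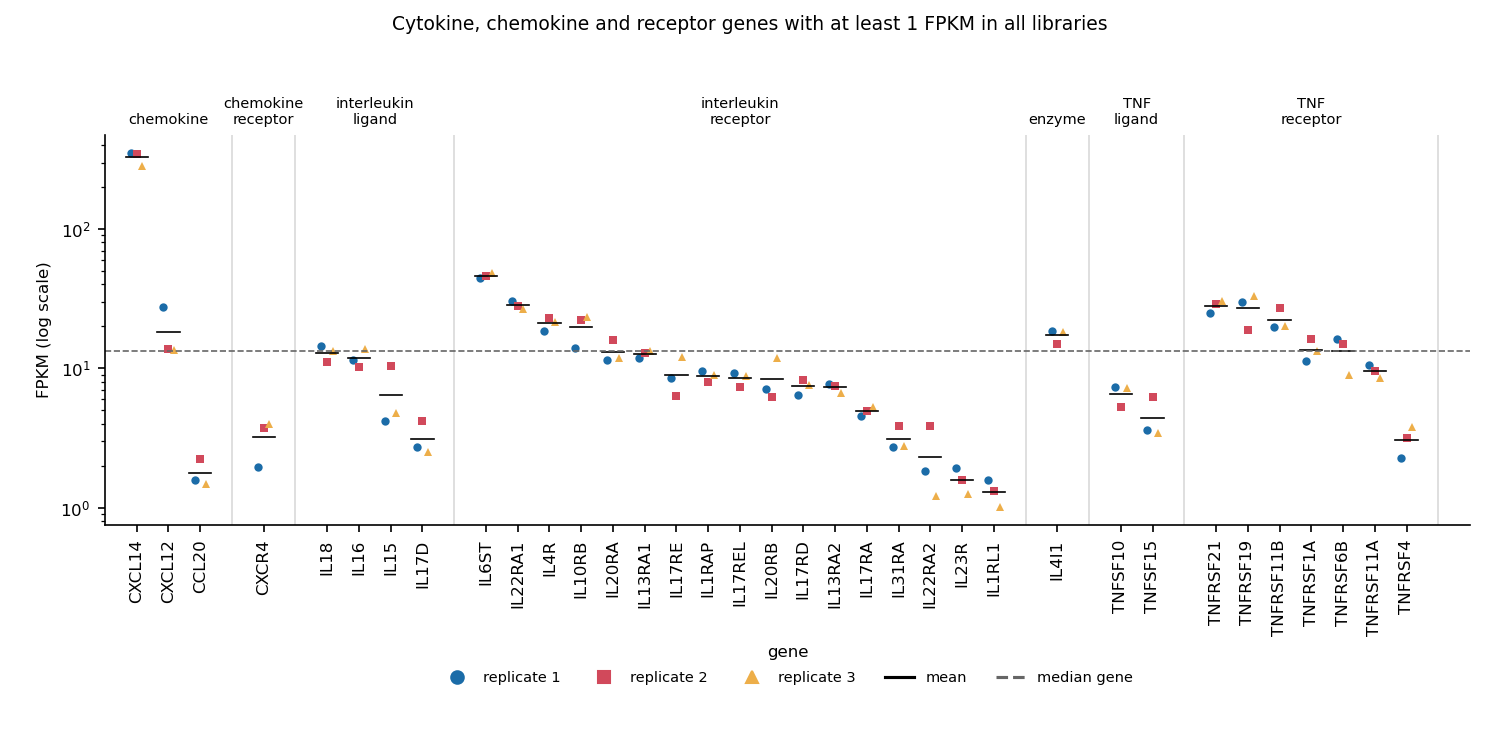
FPKM on a log axis for the 35 member genes over the minimum, by role. Points are the 3 libraries, black bars are means and the dashed line is the library median gene near 13.3 FPKM. CXCL14 and IL6ST are clear of all others, and libraries differ most for IL22RA2, IL15, CXCL12 and CXCR4.

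In the TNF superfamily, the 13 receptor genes had a median of 3.08 FPKM and the 5 ligand genes one of 0.674 FPKM. TNFRSF21 (death receptor 6) was at 25.1, 28.8 and 30.6 FPKM, 2.11-fold above the median gene (log2 1.08 ± 0.10 SE, adjusted p = 9e-05). TNFRSF19 (TROY), which is found in hair follicle and epithelial progenitors of mammals, was at 29.9, 19.0 and 32.9 FPKM (log2 1.00 ± 0.16 SE, adjusted p = 0.0013), lowest in replicate 2. TNFRSF11B (osteoprotegerin), a soluble decoy for the ligand TNFSF11 (RANKL), was at 19.8, 26.95 and 20.1 FPKM (log2 0.73 ± 0.12 SE, adjusted p = 0.0016), highest in replicate 2. These 3 were the TNF receptor genes above the median gene of 7 tested (42.9%, near the background of 43.7%), and their ranges overlapped. Below it were 2 (28.6%, background 43.6%).

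TNFRSF1A, the main receptor of TNF, was at 11.3, 16.3 and 13.2 FPKM and not apart from the median gene (adjusted p = 0.88). TNFRSF6B, a soluble decoy for TNFSF15 and FAS ligand in humans, was at 16.2, 14.9 and 8.88 FPKM and also not apart from it (adjusted p = 0.86). TNFRSF11A (RANK), the signalling receptor of TNFSF11, was at 10.6, 9.57 and 8.49 FPKM and 1.39-fold below it (log2 -0.47 ± 0.10 SE, adjusted p = 0.0049). TNFRSF4 (OX40), known as a costimulatory receptor of T cells in mammals, was at 2.28, 3.16 and 3.80 FPKM and 4.28-fold below it (adjusted p = 2.7e-05). The order of TNFRSF1A and TNFRSF6B differed between libraries, and all libraries of TNFRSF4 lay below those of the other 6.

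Under the minimum, TNFRSF17, a TNF superfamily receptor of B cells, was at 0.482, 0.388 and 0.523 FPKM. Its relative TNFRSF13B had 27, 64 and 10 reads, most of them in replicate 2. TNFRSF25, the receptor of TNFSF15, had 0, 17 and 9 reads. Because its implied gene length is 415 bases, those few reads make 1.33 FPKM in replicate 2, and the same limit of a possibly partial gene model applies. TNFRSF8, TNFRSF9 and TNFRSF18, TNF superfamily receptors of T cells, had means of 0.368, 0.206 and 0.127 FPKM. TNFRSF18 and TNFRSF4 are next to each other in the RefSeq gene table, and the lowest TNFRSF4 library (2.28 FPKM) was above the highest TNFRSF18 library (0.184 FPKM).

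Of the TNF ligands, TNFSF10 (TRAIL), which can trigger cell death, was at 7.32, 5.27 and 7.17 FPKM (log2 -1.01 ± 0.12 SE, adjusted p = 0.00029). TNFSF15 (TL1A), a costimulator that vascular cells make in mammals, was at 3.60, 6.21 and 3.43 FPKM (log2 -1.62 ± 0.18 SE, adjusted p = 0.00024). Both were below the median gene, TNFSF10 lowest and TNFSF15 highest in replicate 2. TNFSF11, the ligand of TNFRSF11A that drives osteoclast formation, was at 0.623, 0.731 and 0.669 FPKM from 47, 54 and 41 reads. TNFSF13B (BAFF), a survival factor of B cells, had 9, 7 and 7 reads, and TNFSF8 had 3, 0 and 3.

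No toll-like receptor among the members reached 1 FPKM in all libraries, and their median was 0.0641 FPKM. TLR3, the receptor of double-stranded RNA, was at 2.51, 0.902 and 0.839 FPKM from 360, 127 and 98 reads. It was 2.98-fold higher in replicate 1 than in replicate 3, and its mean of 1.42 FPKM was 0.871 FPKM without replicate 1. TLR1-A, which recognises lipopeptides, was at 0.136, 0.199 and 0.196 FPKM, and TLR2, its partner, had 2, 11 and 7 reads. Birds carry similar copies of these genes, so reads shared between copies may be split or dropped and both values are uncertain. TLR5, the flagellin receptor, had 15, 17 and 17 reads, TLR4, the receptor of bacterial lipopolysaccharide, had 10, 20 and 4, and TLR7, which senses single-stranded RNA, had 10, 10 and 4. LY96, the coreceptor of TLR4, was at 0.232, 0.289 and 0.158 FPKM.

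Ratios within a library set ligands beside their receptors, chains beside their partners and decoys beside what they capture. Of 59 listed pairs, 18 had at least 10 reads in every library for both genes, 10 had fewer and 31 included a gene not analysed here. In 17 of the 18 the same gene was higher in 3 of 3 libraries. How often other pairs of genes keep their order was not computed, so this count shows nothing particular to these pairs. With 3 libraries an exact sign-flip test gives no p below 0.25, so these ratios are a description.

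The decoy, the receptor and the ligand of the RANK system kept a fixed order. TNFRSF11B was 31.8, 36.9 and 30.1 times as high as its ligand TNFSF11 (geometric mean 32.8) and 1.87, 2.82 and 2.37 times as high as the receptor TNFRSF11A. TNFRSF11A in turn was 17.0, 13.1 and 12.7 times as high as TNFSF11. The spread was small, with an SD of the log2 ratio of 0.15 for decoy over ligand. TNFSF11 was under the minimum, and with 0.1 added to each FPKM this mean log2 ratio was 4.84 instead of 5.04. The decoys of IL22 and IL13 were lower than the signalling chains for the same ligands. IL22RA1 was 16.5, 7.34 and 22.1 times as high as the decoy IL22RA2, and IL13RA1 was 1.54, 1.74 and 1.99 times as high as IL13RA2. The decoy TNFRSF6B was 4.51, 2.40 and 2.59 times as high as its ligand TNFSF15.

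Several ratios of chemokines and interleukins to their receptors differed widely between libraries. CXCL12 was 14.0, 3.70 and 3.38 times as high as CXCR4, and the geometric mean of 5.59 was 3.54 without replicate 1. Against ACKR3, its scavenging receptor, which was at 8.63, 11.9 and 8.49 FPKM, CXCL12 was 3.19, 1.16 and 1.59 times as high. CXCL14, which has been linked to CXCR4 in mammals, was 179, 92.95 and 71.1 times as high as CXCR4. IL18 was 15.5, 22.4 and 50.3 times as high as IL18R1. The level of IL18 spanned 11.1 to 14.4 FPKM and that of IL18R1 0.262 to 0.934 FPKM. IL16 was 14.7, 8.87 and 38.7 times as high as CD4, with a geometric mean of 17.2 that was 11.4 without replicate 3. IL17RD was 2.36, 1.97 and 3.02 times as high as IL17D. These 2 were paired as genes of the IL17 family, and IL17RD is not taken here as the receptor of IL17D.

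Partner chains were between 1.46 and 6.90 times apart by geometric mean. IL4R was 1.56, 1.79 and 1.62 times as high as IL13RA1, the steadiest ratio of all with an SD of 0.11 on the log2 scale. IL22RA1 was 2.18, 1.255 and 1.15 times as high as IL10RB, and IL20RA was 1.62, 2.59 and 1.01 times as high as IL20RB. In replicate 3 the last pair was thus at the same level. IL1RAP was 6.07, 6.06 and 8.93 times as high as IL1RL1, and OSMR, at 6.999, 6.90 and 8.05 FPKM, was 2.59, 1.804 and 2.91 times as high as IL31RA. The pair without a fixed direction was EDA and EDAR, a TNF family ligand of skin appendages and its receptor, with EDA at 0.856, 1.20 and 0.59 times EDAR.

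**Figure D3:**
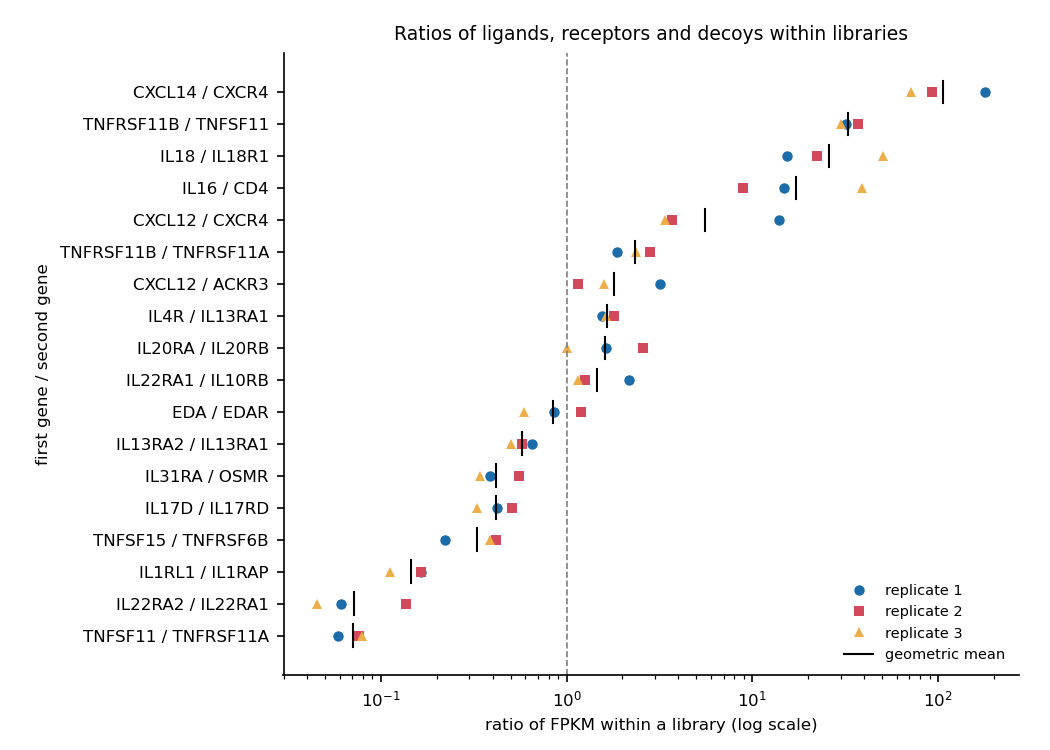
Ratio of the FPKM of the first to the second gene within each library, on a log axis, for the 18 pairs with at least 10 reads in every library. Points are the 3 libraries, black ticks are geometric means and the dashed line marks equal levels. Of the pairs, 17 lie on 1 side of that line in all libraries, and EDA over EDAR crosses it.

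Libraries differed more for members than for most genes. The median SD of log2 values was 0.26 over the 35 members and 0.17 over all genes kept, and 26 of the 35 (74.3%) were above the value for all genes. The largest SDs belonged to IL22RA2 (0.80), IL15 (0.69), CXCL12 (0.58) and CXCR4 (0.54), and the smallest to IL6ST (0.07), IL13RA1 (0.08) and IL22RA1 (0.09). Members were also lower than all genes kept, and the part of their level in this spread was not tested. No library was high for members at large, with median deviations from each gene's own mean of -0.09, 0.04 and 0.02 on the log2 scale. Highest in replicates 1, 2 and 3 were 13, 11 and 11 of the 35, and lowest were 14, 9 and 12. Of all 10605 genes kept, 3511, 3606 and 3488 were highest and 3429, 3885 and 3291 were lowest there.

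Cell type markers differed between the libraries as well. Of the 11 members highest in replicate 2, the 5 farthest from their mean were IL22RA2, IL15, TNFSF15, IL17D and CCL20, with deviations there from 0.35 to 0.86 on the log2 scale. Of 9 fibroblast markers 8 were also highest there, with a median deviation of 0.48, and their summed level was 3707, 6480 and 3807 FPKM. Of 13 leukocyte markers with at least 10 reads in some library 10 were highest in replicate 2 as well, among them CD74 at 5.40, 14.5 and 5.67 FPKM, but of the 5 over the minimum this held for 2. Of the 9 members lowest in replicate 2, the 4 farthest were TNFRSF19, IL17RE, IL20RB and TNFSF10, with deviations there from -0.48 to -0.30. Lowest there were also 7 of 8 keratinocyte markers, with a median deviation of -0.28 and a summed level of 4040, 3462 and 3973 FPKM. The part of these cell types in the members' differences was not tested.

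Of the 27 members under the minimum with at least 10 reads in some library, 14 were highest in replicate 2, against 5 in replicate 1 and 8 in replicate 3. How all genes under the minimum divide between libraries was not computed, so this is not shown to be particular to members. The 14 include CXCR6, CCR7, IL2RG, IL10RA and TNFRSF13B, each described above. Highest elsewhere were, among others, IL18R1, IL18RAP, IL7R and TNFRSF8 in replicate 1 and IL21R, IL12RB2 and TNFRSF17 in replicate 3. The granulocyte receptor CSF3R, which is no member, had 0, 22 and 2 reads. Of the 13 members over the minimum that were highest in replicate 1, CXCL12 was the farthest from its mean, at 0.67 on the log2 scale. Of the 5 under it, TLR3 was the farthest, at 0.95. Highest in replicate 1 were also 7 of 10 endothelial markers, with a median deviation of 0.17 and a summed level of 137, 121 and 111 FPKM. The part of these cells was not tested either.

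**Figure D4:**
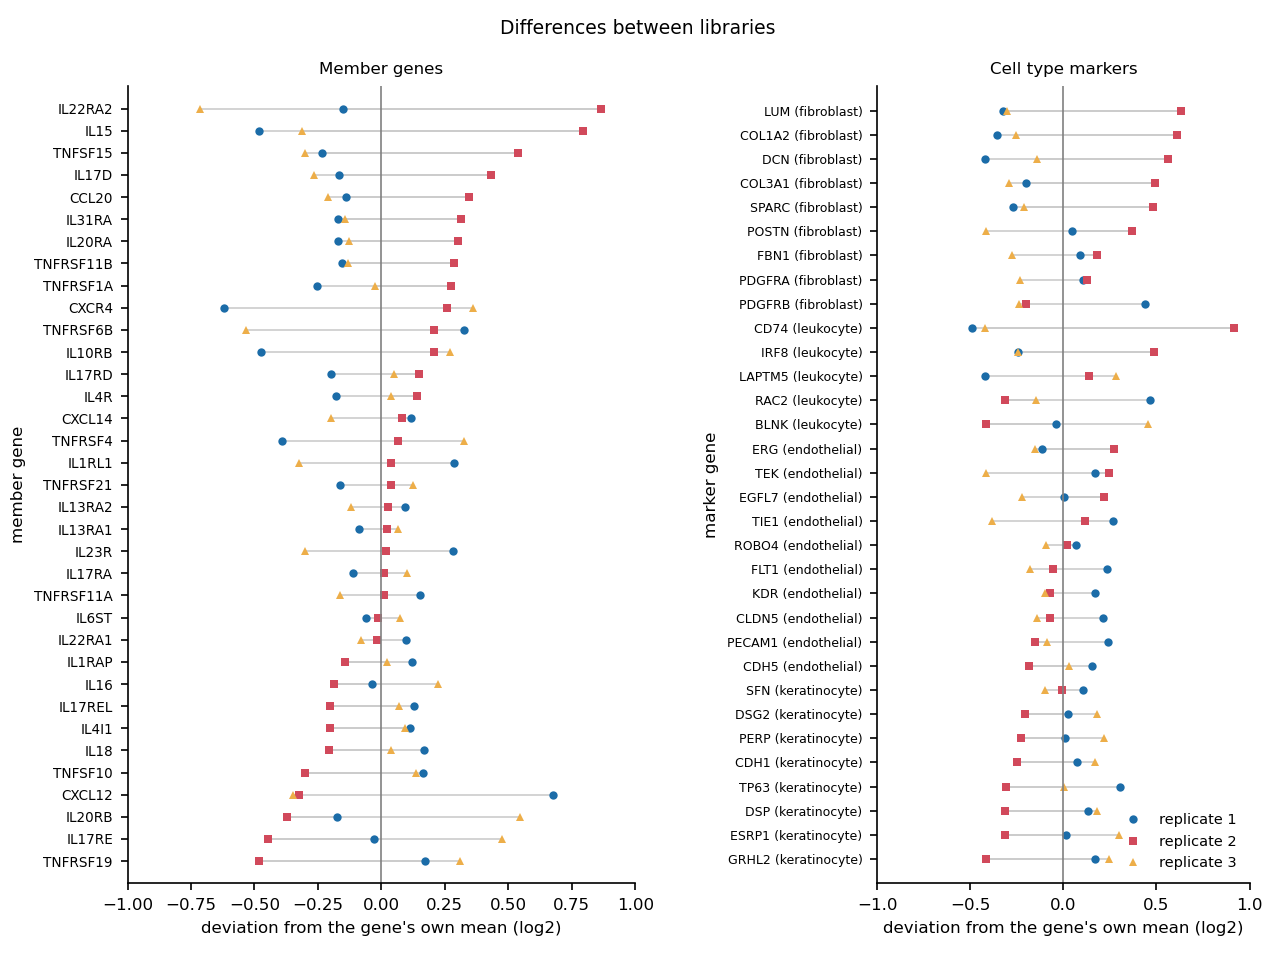
Deviation of log2(FPKM + 0.1) in each library from the gene's own mean over 3 libraries, for the 35 members (left, ordered by replicate 2) and for markers over the minimum (right). Points are libraries and grey lines join a gene's range. Replicate 2 is the highest for 8 of 9 fibroblast markers and the lowest for 7 of 8 keratinocyte markers, and members are found on both sides.

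A list of signalling genes and of further cytokine and receptor genes reached the minimum more often than the members. Of 103 listed signalling genes and cytokine genes with other symbols, 77 were measured. At least 1 FPKM in all libraries was found for 65 of them (84.4%), against the 71.0% of all genes. Of the 25 measured cytokine and receptor genes with other symbols, 18 (72.0%) reached it, near the share of all genes. In limma's test 18 of the 65 were above the median gene (27.7%, background 43.7%) and 40 below (61.5%, background 43.6%), and 7 were not apart. Without a minimum the split was 28 above and 31 below, and at 5 FPKM it was 8 and 30. All genes split almost evenly at both of these settings. The list thus had nearly as many genes above as below without a minimum, and more below at 5 FPKM. The median SD of log2 values of the 65 was 0.15.

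Of 13 adaptors and regulators of toll-like and IL1 receptors 11 were over the minimum, 5 above (45.5%) and 5 below (45.5%) the median gene, near the background of 43.7 and 43.6%. The kinase MAP3K7 (TAK1) was at 44.5, 47.4 and 50.5 FPKM, MYD88, the adaptor of most toll-like receptors, at 27.04, 19.6 and 20.5, TOLLIP, an inhibitor of that pathway, at 19.4, 20.0 and 19.2, and IRAK2 at 18.4, 15.7 and 20.9 FPKM. All 4 were above the median gene (log2 1.83, 0.74, 0.56 and 0.46, adjusted p at most 0.0075). At a minimum of 5 FPKM, only MAP3K7 of these 4 kept that call. TICAM1, the adaptor of TLR3, was at 4.78, 3.74 and 4.61 FPKM, below the median gene (log2 -1.58, adjusted p = 1.9e-05). These 5 genes were above the receptors TLR1-A, TLR2, TLR4, TLR5 and TLR7, none of which exceeded 0.199 FPKM, whereas LY96 overlapped with TLR1-A and the inhibitor SIGIRR had a mean of 0.769 FPKM.

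Of 12 TNF receptor adaptors tested, 1 was above (8.33%, background 43.7%) and 11 below (91.7%, background 43.6%) the median gene, and TRAF5 was under the minimum. BIRC2, a ubiquitin ligase that restrains cell death, was at 15.4, 16.7 and 17.0 FPKM (log2 0.31, adjusted p = 0.019), and it was not called without replicate 3 (log2 0.30, adjusted p = 0.079). CFLAR, CASP8 and RIPK1, which decide between survival and death downstream of death receptors, averaged 10.01 ± 0.502, 9.76 ± 1.65 and 8.84 ± 0.844 FPKM (SD, n = 3) and were below it (log2 -0.40, -0.45 and -0.58, adjusted p at most 0.01). For CASP8 the call ended when replicate 1 was left out (log2 -0.37, adjusted p = 0.074). In limma's test without a minimum, CFLAR and CASP8 were above the median gene (adjusted p = 0.011 and 0.045). RIPK1 was then not apart from it (log2 0.22, adjusted p = 0.096), and BIRC2 stayed above. At a minimum of 5 FPKM CFLAR, CASP8 and RIPK1 stayed below it, and BIRC2 was below it as well (adjusted p = 0.013). The list held no gene beyond 16.4 FPKM on average.

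Among 11 NF-kB genes 4 were above (36.4%) and 5 below (45.5%) the median gene, near the background of 43.7 and 43.6%. The inhibitor NFKBIA, itself a target of the pathway, was at 28.1, 40.1 and 26.1 FPKM (log2 1.22, adjusted p = 0.0003), and NFKBIZ at 28.7, 16.0 and 21.7 FPKM (log2 0.70, adjusted p = 0.0067). IKBKB, the activating kinase, averaged 17.98 ± 2.26 and NFKB1, a subunit of the factor, 16.4 ± 1.46 FPKM (SD, n = 3), with log2 0.43 (adjusted p = 0.0078) and 0.31 (adjusted p = 0.022). The call of NFKB1 was lost without replicate 1 (log2 0.33, adjusted p = 0.068) or replicate 3 (log2 0.27, adjusted p = 0.11). At a minimum of 5 FPKM NFKBIA kept its call, NFKBIZ and IKBKB lost theirs and NFKB1 was below the median gene. NFKBIA was highest and NFKBIZ lowest in replicate 2. TNFAIP3, another inhibitor and target, was at 2.05, 1.89 and 1.99 FPKM, 6.43-fold below the median gene (adjusted p = 1.6e-06).

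JAK and STAT genes gave 4 above (30.8%, background 43.7%) and 7 below (53.8%, background 43.6%) of 13 tested. STAT6, the factor of IL4 and IL13 signalling, was at 37.8, 30.8 and 36.1 FPKM. JAK1, the kinase shared by IL6ST, IL4R and IL22RA1, was at 21.5, 21.3 and 22.8, and the feedback inhibitor CISH at 19.0, 21.2 and 18.04 FPKM. These 3 were among those above the median gene (log2 1.39, 0.72 and 0.55, adjusted p at most 0.0021). Of these 3, only STAT6 kept that call at a minimum of 5 FPKM. SOCS3, the feedback inhibitor of IL6ST, was at 3.14, 6.09 and 2.52 FPKM, below the median gene (log2 -1.83, adjusted p = 0.00047) and highest in replicate 2, while IL6ST was even across libraries.

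Cytokines and receptors with other symbols gave 4 above (22.2%, background 43.7%) and 12 below (66.7%, background 43.6%) of 18 tested. MIF, a widely expressed cytokine, was at 166, 161 and 170 FPKM (log2 3.63, adjusted p = 7.4e-07), below CXCL14. The interferon receptor chains IFNGR1, IFNGR2 and IFNAR2 were at means of 37.3 ± 3.16, 32.0 ± 1.28 and 28.3 ± 3.01 FPKM (SD, n = 3), each above the median gene with an adjusted p of at most 9.8e-05, and IFNAR1, at 6.74, 8.95 and 8.0 FPKM, was below it (log2 -0.75, adjusted p = 0.00092). The ligand IFNG had 1 read in all and the chemokine receptor XCR1 had none. LIF, a ligand of IL6ST with LIFR, was at 1.46, 3.76 and 2.15 FPKM (log2 -2.48, adjusted p = 0.00011), and LIFR was at 11.9, 11.2 and 7.55 FPKM.

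**Figure D5:**
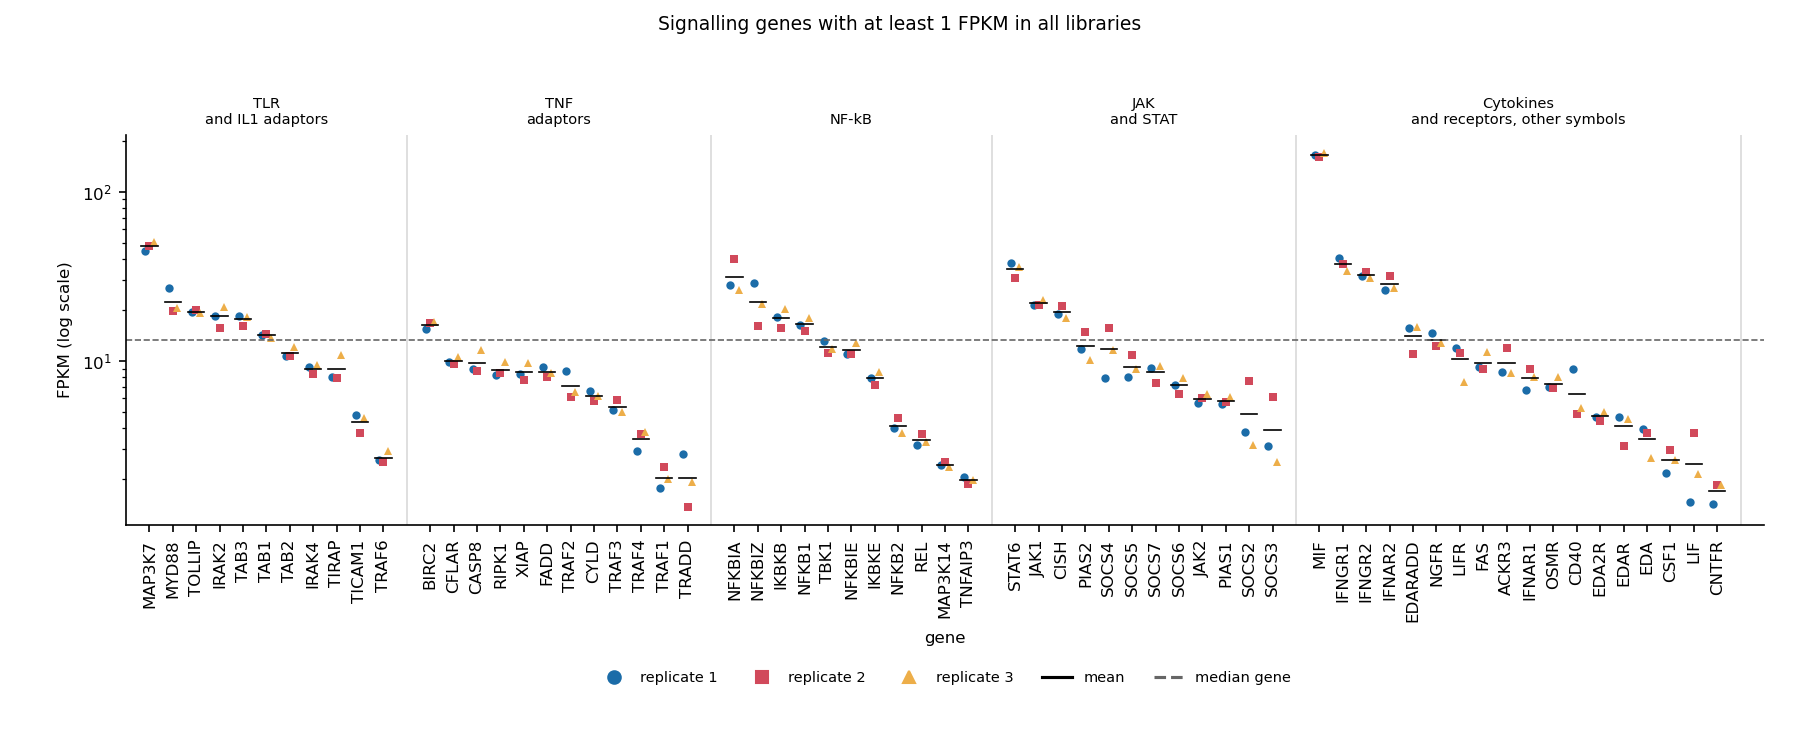
FPKM on a log axis for signalling and cytokine genes with other symbols over the minimum, by sublist, with 1 of the 65 not drawn. Points are the 3 libraries, black bars are means and the dashed line is the library median gene near 13.3 FPKM. MIF (166, 161 and 170 FPKM) and MAP3K7 (44.5, 47.4 and 50.5 FPKM) lead their sublists, and most TNF receptor adaptors lie below the dashed line.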

How the data were processed

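Bill skin RNA of 3 biological replicates was extracted with TRIzol, and the labels' protocols describe stranded libraries of oligo-dT purified mRNA (KAPA kit). The deposited table holds raw counts and FPKM values side by side, per the file headers. Among tools, the submitters' processing notes list edgeR 3.22.3, STAR 2.5.4b, Trimmomatic 0.36, CASAVA 1.8.2 and featureCounts (Subread 1.6.2), with no roles. The genome build is not given in the sources used here. With edgeR's TMM factors (0.978, 1.008 and 1.014), count and FPKM imply a gene length that is whole within 0.01 bases for 100% of 14343 genes with reads, so the deposited FPKM carry TMM scaling. The RefSeq gene table of assembly IASCAAS_PekinDuck_T2T was used only for names and neighbouring genes, and 79 of 81 members matched.

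Genes at 1 FPKM or more in each library were tested against the library median on log2(FPKM + 0.1) with limma 3.58.1 in R 4.3.3, two-sided, at an adjusted p of 0.05. The fit was also run on simulated counts, whose outcome is not given here. That simulation took the gene lengths as known, so it cannot show errors in them. Limma's p-values rest on the scatter of a gene across the 3 libraries, moderated by the scatter of all genes tested. Errors tied to a gene and shared by all libraries, such as a partial gene model, are outside the p-values. Every member over the minimum is named with its library values, and, under it, the 3 highest of each role, genes of the described pairs and some others chosen after their values were seen. The 4 highest of each signalling sublist are named, except 1 that is not reported here. Other genes of that list and of the marker lists were picked after their values were seen. Members, lists and tests were chosen with earlier results of these data known. Alternatives varied the pseudocount (0.01, 1), the minimum (0, 0.1, 5 FPKM), the test (edgeR 4.0.16 on counts, limma with a variance trend), DESeq2 1.42.0 size factors and the libraries. Figures used Python 3.11.15 and matplotlib 3.10.9.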

Additional observations from a re-analysis of the deposited data

How the results depend on the processing

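Over a minimum of 0.1 FPKM were 53 members, instead of 35 over 1 FPKM. The members above and below the median gene, 9 and 19 of 35, numbered 14 and 32 of 53 at a minimum of 0.1 FPKM. They numbered 17 and 50 without a minimum, and 4 and 14 of 24 at 5 FPKM. How many members were tested without a minimum is not given here. All genes split almost evenly above and below at each of these settings, whereas more members lay below than above. Because the number tested changes with the minimum, the counts compare only within a setting. Of the signalling list, 18 above became 28 without a minimum and 8 at 5 FPKM. Without a replicate the members gave 7 to 8 above and 17 to 19 below, and the signalling list 16 to 18 above and 35 to 41 below. The other pseudocounts, edgeR on counts, the variance trend and DESeq2 size factors gave the same 4 counts of members and signalling genes.

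A lower minimum lowers the median gene by construction, and log2 values against it turned from negative to positive. At 0.1 FPKM this held for IL13RA1 (0.34), IL16 (0.22), IL18 (0.35), IL20RA (0.37) and TNFRSF6B (0.36). Without a minimum it held for IL13RA1 (0.74), IL16 (0.63), IL17RE (0.21), IL17REL (0.16), IL18 (0.76), IL1RAP (0.23), IL20RA (0.78), IL20RB (0.0893), TNFRSF11A (0.33), TNFRSF6B (0.77), CFLAR (0.40), CASP8 (0.35) and RIPK1 (0.22). At 5 FPKM, values turned from positive to negative for CXCL12 (-0.23), IL10RB (-0.0548), IL4I1 (-0.22), TNFRSF1A (-0.58), CISH (-0.0566), IKBKB (-0.17), NFKB1 (-0.30), TOLLIP (-0.045), IRAK2 (-0.15) and BIRC2 (-0.30). In limma's test some calls turned with the sign. Without a minimum TNFRSF11A, CFLAR and CASP8 went from below to above the median gene (adjusted p = 0.033, 0.011 and 0.045). At 5 FPKM NFKB1 and BIRC2 went from above to below it (adjusted p = 0.018 and 0.013). IL13RA1, IL16, IL18, IL20RA, TNFRSF1A and TNFRSF6B, not apart at 1 FPKM, were above it without a minimum and below it at 5 FPKM. With edgeR on counts the log2 value of TNFRSF6B was 0.0141.

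Without 1 replicate, 5 members not apart from the median gene changed sign, IL13RA1 ranging from -0.0674 to 0.0085, IL18 from -0.101 to 0.0723, IL20RA from -0.167 to 0.0817, TNFRSF1A from -0.106 to 0.17 and TNFRSF6B from -0.176 to 0.255. The log2 ratio of EDA over EDAR ranged from -0.493 to 0.0178. The members' median deviation ranged from -0.0242 to -0.013 in replicate 1 and from -0.0319 to 0.013 in replicate 3.

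Depth limits the members with fewer than 10 reads, and the pairs described would number 24 instead of 18 at 3 reads. No paired analysis was possible because there is 1 group.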
